A study of Mus musculus with 24 samples.

Results

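The lungs of Marfan mice given vehicle were set against the lungs of wild-type (WT) mice given vehicle, which is the genotype comparison without drug. It used 11 of the 24 arrays of the series, 5 from Marfan vehicle mice (arrays 20 to 24) and 6 from WT vehicle mice (arrays 13 to 18), chosen by their labels. The study planned 6 arrays in each of 4 groups, Marfan sildenafil, WT sildenafil, Marfan vehicle and WT vehicle, and sildenafil, an inhibitor of the cyclic GMP phosphodiesterase PDE5, was given by way of the water bottle, starting when mice were 6 weeks old. All mice were killed at 6 months of age and RNA came from lung. Of the 24 arrays, 20 carried values, and 4 titled as failing quality control had none, 1 of them a Marfan vehicle array. The sildenafil comparison, with 5 Marfan and 4 WT arrays, is used here only beside the vehicle comparison.

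The labels name the mutant mice only as Marfan. They give no allele, strain, sex, litter or batch, and they do not say whether each array came from a separate mouse, so the p-values measure the spread between these arrays. Marfan syndrome arises from mutation of Fbn1, the gene for fibrillin-1, and affects connective tissue. Fibrillin-1 forms microfibrils, which scaffold elastic fibres and hold latent TGF-beta complexes in the matrix, and mice with altered fibrillin-1 can develop widened airspaces. Fbn1 itself was not analysed here, so the labels were not checked against it. The lung label was checked against alveolar type 2 cell markers, which averaged 10.84 to 11.02 on the log2 scale over 18 genes on the Marfan vehicle arrays and 10.67 to 10.97 on the WT vehicle arrays, so the markers were present on every array of both groups.

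The 3 genes with the smallest p-values among the brighter genes were Aebp1, Esm1 and Mapkbp1, and their promoters are shown here because the gene-level results begin with them. Each runs from 250 bases before to 50 bases after the start of the gene and was taken from RefSeq (GRCm38.p6), at chr11:5861616-5861915 on the plus strand for Aebp1, chr13:113209409-113209708 on the plus strand for Esm1 and chr2:119972449-119972748 on the plus strand for Mapkbp1. The capitals mark the letters of 4 motifs searched on both strands, CAGAC (the Smad box, bound by the Smad proteins that carry TGF-beta signals), GGGCGG (the GC box), TATAAA (the TATA box) and TGANTCA (the AP-1 site).
Aebp1: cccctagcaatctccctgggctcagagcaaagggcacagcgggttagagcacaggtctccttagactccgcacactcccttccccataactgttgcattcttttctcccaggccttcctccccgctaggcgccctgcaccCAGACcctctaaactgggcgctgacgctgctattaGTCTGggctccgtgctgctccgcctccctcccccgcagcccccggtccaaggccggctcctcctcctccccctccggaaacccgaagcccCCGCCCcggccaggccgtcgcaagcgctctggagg
Esm1: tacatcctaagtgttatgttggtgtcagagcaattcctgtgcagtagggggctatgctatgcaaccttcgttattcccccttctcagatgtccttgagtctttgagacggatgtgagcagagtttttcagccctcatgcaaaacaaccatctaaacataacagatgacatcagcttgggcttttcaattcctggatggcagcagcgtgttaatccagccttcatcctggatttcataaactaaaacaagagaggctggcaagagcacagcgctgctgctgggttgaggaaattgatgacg
Mapkbp1: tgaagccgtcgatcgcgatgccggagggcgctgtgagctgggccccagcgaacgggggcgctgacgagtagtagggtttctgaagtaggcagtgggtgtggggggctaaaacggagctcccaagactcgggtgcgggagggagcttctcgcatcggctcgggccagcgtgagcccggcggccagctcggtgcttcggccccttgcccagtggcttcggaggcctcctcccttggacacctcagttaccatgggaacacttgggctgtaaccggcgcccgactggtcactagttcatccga
The Aebp1 window held 2 CAGAC matches and 1 GGGCGG match, and the Esm1 and Mapkbp1 windows held none of the 4. Over the 19133 promoter windows of 15683 measured genes, CAGAC occurred in 48.5%, GGGCGG in 47.9%, TATAAA in 12.3% and TGANTCA in 7.15%. A match describes letters in this window only.

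The deposited values did not share one distribution. The median log2 value of the deposited arrays was 6.03 ± 0.13 for Marfan vehicle (SD, n = 5, range 5.80 to 6.14) and 5.66 ± 0.19 for WT vehicle (SD, n = 6, range 5.32 to 5.83), a difference of 0.38 (exact two-sided permutation test over 462 assignments, p = 0.00866). Marfan sildenafil arrays averaged 6.06 ± 0.28 (n = 5) and WT sildenafil arrays 6.06 ± 0.14 (n = 4), so the WT vehicle arrays were the dimmest of the 4 groups. Quantile normalization removed this offset from each array's median, and list medians are given below also with array brightness as a covariate ("with brightness"). On arrays 20 and 21 (Marfan vehicle) and 13 and 14 (WT vehicle), 3 Y-linked genes were low, and on the other 7 vehicle arrays they were high. Values from the arrays with high and with low Y-linked genes are given below for mesothelial genes, Podn and Prelp. Other list medians also differed between these arrays (high, then low). They were 0.22 and 0.06 for elastic fibre genes and 0.10 and 0.39 for fibrillar collagens. T and NK cell genes had -0.20 and 0.21, macrophage and monocyte genes -0.13 and 0.22, and interferon genes -0.07 and 0.21. Each low value rests on 2 arrays per genotype. Among them, Marfan array 21 had the highest T and NK cell mean of its group (7.367, others 6.51 to 6.754). It also had the highest macrophage and monocyte mean (8.062, others 7.519 to 7.629). The part of sex in the lists was not tested.

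No gene passed an adjusted p of 0.05 between Marfan vehicle and WT vehicle lungs (limma over 19494 genes, 4 groups in 1 fit, Benjamini-Hochberg adjustment), and the lowest adjusted p was 0.117, for Aebp1. At an unadjusted p below 0.05, 1223 genes (6.27%) were counted, 679 higher in Marfan vehicle lungs (3.48%) and 544 lower (2.79%). The groups did not overlap for 51 genes higher (0.262%) and 52 genes lower (0.267%) in Marfan vehicle lungs. The median difference over all genes was -0.0048 and the median standard error 0.16 log2, and 2 genes were past 1 log2 higher and 1 gene past 1 log2 lower. Without quantile normalization the split turned: the deposited values gave 4474 genes higher and 58 lower with the median gene at 0.25, and median centring gave 198 higher and 2898 lower with the median gene at -0.13. With array brightness as a covariate the counts were 725 higher (3.72%) and 689 lower (3.53%). With 1 vehicle array or Marfan sildenafil array 9 left out, the counts without a covariate were 527 to 915 higher and 445 to 680 lower. List counts given below without 1 array stand beside these ranges, not beside 3.48%. The deposited and median-centred values differ by 1 constant per array, so list medians relative to the median gene are identical by construction. They were 0.18 for elastic fibre genes, 0.37 for latent TGF-beta binding proteins, 0.30 for lysyl oxidases, 0.26 for fibrillar collagens, 0.40 for collagen VI, 0.36 for the basement membrane and -0.02 for small leucine-rich proteoglycans.

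The spread between 2 arrays of different genotypes covered the same range as the spread within a genotype. The SD of the gene differences between 2 arrays had a median of 0.402 over 30 Marfan vehicle with WT vehicle pairs (range 0.353 to 0.482), 0.404 over 10 pairs within Marfan vehicle (0.350 to 0.462) and 0.404 over 15 pairs within WT vehicle (0.323 to 0.464).

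**Figure D1:**
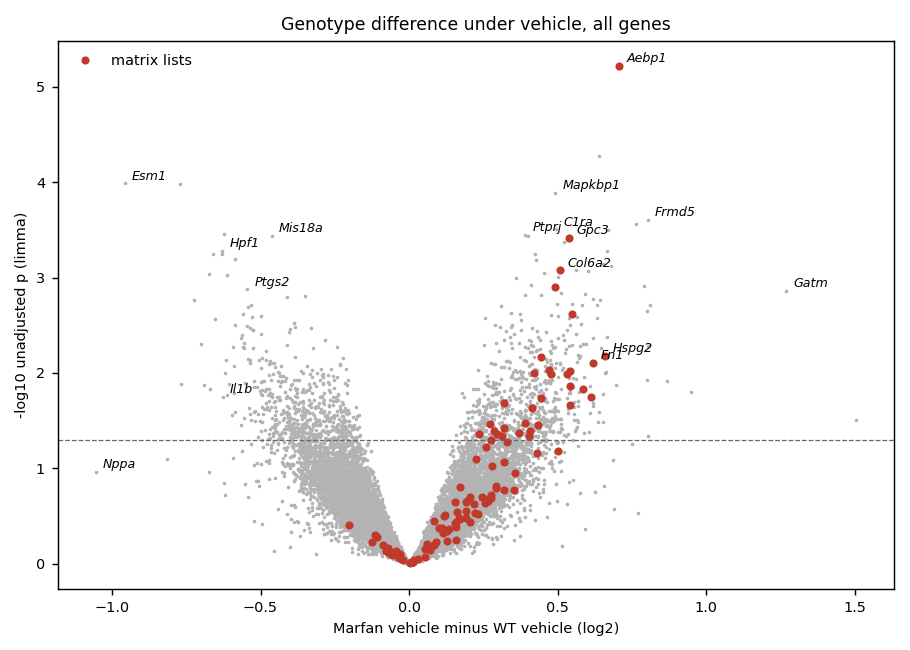
Marfan vehicle minus WT vehicle difference (log2, horizontal axis) against -log10 of the unadjusted limma p (vertical axis) for 19494 genes, with members of the 9 matrix lists in red and a dashed line at the unadjusted threshold. Aebp1 lies highest on the p axis, and most red points lie right of 0.

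Aebp1 had the smallest p of the genes higher in Marfan vehicle lungs. Aebp1, whose secreted form (aortic carboxypeptidase-like protein) binds collagen, had log2 values of 8.85, 8.35, 8.69, 8.66 and 8.60 on the Marfan vehicle arrays, against a lowest, median and highest of 7.67, 7.92 and 8.37 on the WT vehicle arrays. The groups touched only where WT array 17 (8.37) lay above Marfan array 21 (8.35). The difference was 0.71 ± 0.12 log2 (SE, unadjusted p = 5.99e-06, limma adjusted p = 0.117), or 0.66 with brightness as a covariate. It was 0.80 without WT array 17 (adjusted p = 0.00784) and 0.65 without Marfan array 20 (adjusted p = 0.780), so single arrays decide whether it passes. Gpc3, an X-linked glypican that carries heparan sulfate at the cell surface, had 10.32, 9.88, 10.11, 10.15 and 10.20 in Marfan vehicle lungs, against 9.43, 9.54 and 9.91 (lowest, median, highest) in WT vehicle lungs, a difference of 0.54 ± 0.13 (SE). Without Marfan sildenafil array 9, whose deposited median (5.73) was the lowest of its group, Aebp1 and Gpc3 were the 2 genes past an adjusted p of 0.05.

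C1ra, a mouse gene for the serine protease C1r of the classical complement pathway, had 8.27, 8.03, 8.34, 8.17 and 8.26 in Marfan vehicle lungs, against 7.19, 7.80 and 7.95 (lowest, median, highest) in WT vehicle lungs. The groups did not overlap. The difference was 0.49, and that of C1rb, a near-identical copy whose probes may not be told apart from C1ra, was 0.41, also with no overlap. Mapkbp1, a scaffold protein of the JNK pathway, differed by 0.49 and Ptprj, a receptor tyrosine phosphatase, by 0.39, both without overlap. The other genes with the smallest p-values were Prpf8, a core protein of the spliceosome (0.40), Scube1, a secreted EGF- and CUB-domain protein (0.52), Arsa and Sgsh, lysosomal sulfatases (0.42 and 0.50), Slc12a7, a potassium-chloride cotransporter (0.43), Sorl1, a sorting receptor (0.45), and Col6a2, a chain of collagen VI (0.51). Cd248, an endosialin of perivascular cells and fibroblasts, was 0.41 higher with no overlap. All these values had limma adjusted p-values of 0.501 or more.

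Esm1 headed the genes lower in Marfan vehicle lungs. Esm1 encodes endocan, a proteoglycan that endothelial cells secrete. It had 6.15, 5.39, 5.92, 6.11 and 6.29 on the Marfan vehicle arrays, against 6.44, 6.87 and 7.62 (lowest, median, highest) on the WT vehicle arrays, with no overlap. The difference was -0.96 ± 0.21 log2 (SE, unadjusted p = 0.000103, limma adjusted p = 0.501), and the Marfan sildenafil minus WT sildenafil difference was -0.66. Other genes lower without overlap were Hpf1, a partner of PARP1 in DNA repair (-0.63), Mis18a, a centromere protein (-0.46), Ggh, which cleaves folate polyglutamates (-0.41), Tsga10, known from sperm (-0.41), Chchd7 (-0.40), Hddc3 (-0.39) and Spryd7 (-0.35). For Hpf1, Marfan array 22 was lowest, at 5.26 against 6.03 to 6.16 on the other 4. Ptgs2, the prostaglandin-producing enzyme cyclooxygenase 2, had a difference of -0.55 with overlap. Zfp563, Cacybp, Zfp938 and Mfsd14a followed, at -0.50, -0.40, -0.33 and -0.28.

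**Figure D2:**
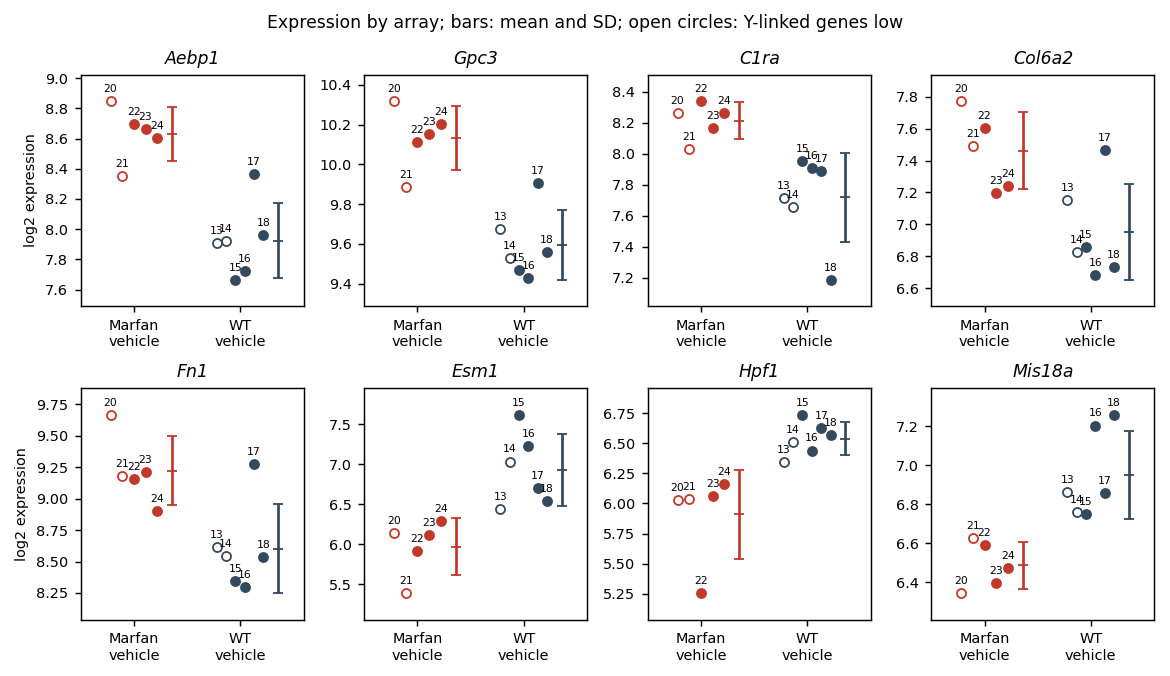
Log2 expression of 8 genes on the 5 Marfan vehicle arrays (red, left) and 6 WT vehicle arrays (blue, right), 1 circle per array with its number, open where Y-linked genes were low, and bars for mean and SD. C1ra, Esm1, Hpf1 and Mis18a show no overlap between groups, and array 17 is the highest WT array for Aebp1, Gpc3, Col6a2 and Fn1.

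Of 18 measured elastic fibre genes, 1 had an unadjusted p below 0.05 (5.56%, against 3.48% of all genes), Efemp1, fibulin-3, at 0.32. The differences were positive for 17 of 18, against 48.8% of all genes, with a median of 0.18, but for 9 of 18 with brightness and 8 of 18 under sildenafil. Eln, which encodes the elastin of the fibre core, had 8.07, 7.85, 7.10, 7.36 and 7.57 in Marfan vehicle lungs, against 6.71, 7.06 and 8.06 (lowest, median, highest) in WT vehicle lungs, so the groups overlapped and the difference was 0.32 (limma adjusted p = 0.832). Fbln1, a fibulin of elastic fibres, differed by 0.33 but by -0.02 with brightness as a covariate. Without Marfan array 20, 0 members had p below 0.05. With brightness the list median was -0.0075, and in the sildenafil arrays it was -0.03. Without Marfan sildenafil array 9 the sildenafil median was 0.067, with 12 of 18 positive.

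Latent TGF-beta binding proteins store TGF-beta in the matrix. The 6 genes of this list all had positive differences (48.8% of all genes did), with a median of 0.27, and 3 had unadjusted p below 0.05 (50%, against 3.48% of all genes higher), namely Ltbp3 (0.45), Ltbp4 (0.44) and Ltbp1 (0.31). The median was 0.34 with brightness, where 5 of 6 were positive, and -0.0051 under sildenafil. Without Marfan array 20, 1 member had p below 0.05.

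Lysyl oxidases, which crosslink collagen and elastin, had a median difference of 0.27 over 4 measured members, and 2 had p below 0.05 (50%, against 3.48% of all genes higher). Loxl1, a member known to act on elastin, differed by 0.55, with Loxl3 at 0.30 and Lox at 0.08. Loxl1 had 8.50, 8.13, 8.16, 7.98 and 8.21 in Marfan vehicle lungs, against 7.15, 7.66 and 8.13 (lowest, median, highest) in WT vehicle lungs, with WT array 14, at 8.13, above Marfan array 23. Without Marfan array 20 the Loxl1 difference was 0.47 and 1 of the 4 members had p below 0.05. With brightness the list median was 0.20 and 0 members had p below 0.05.

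Fibril-forming and fibril-associated collagens had a median of 0.23 over 11 members, 8 of them positive (against 48.8% of all genes), and 2 had unadjusted p below 0.05 (18.2%, against 3.48% of all genes higher). Col3a1, the chain of collagen III, differed by 0.41 and Col1a2, a chain of collagen I, by 0.24, while Col1a1, its partner chain, was at 0.23 (limma adjusted p = 0.799). Col3a1 was 8.96 on Marfan array 20 against 7.97 to 8.18 on the other 4 Marfan vehicle arrays, and without array 20 the difference was 0.24 and 0 members of the list had p below 0.05. The sildenafil comparison gave 0.61 for Col3a1, 0.31 for Col1a2 and a list median of 0.22. With brightness the list median was 0.23 and 3 members had p below 0.05 (against 3.72% of all genes higher).

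Collagen VI, a beaded-filament collagen that sits between cells and matrix, had the highest median of the matrix lists, 0.42 over 6 chains, and 3 of 6 had unadjusted p below 0.05 (50%, against 3.48% of all genes higher). Col6a2 had 7.77, 7.49, 7.60, 7.20 and 7.24 in Marfan vehicle lungs, against 6.68, 6.84 and 7.46 (lowest, median, highest) in WT vehicle lungs. WT array 17 held the 7.46, above 2 Marfan arrays. Col6a1 differed by 0.49 and Col6a3 by 0.36 (limma adjusted p = 0.807), and the dim chain Col6a5 by 0.54. With 1 vehicle array or Marfan sildenafil array 9 left out, the list median stayed between 0.31 and 0.54 and the count between 3 and 4. With brightness the median was 0.44. Under sildenafil the median was -0.01.

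Basement membrane genes, which encode the sheet under epithelium and endothelium, gave the largest count of the 46 lists, 10 of 22 measured members at unadjusted p below 0.05 (45.5%, against 3.48% of all genes), all higher, with a median of 0.31. They were Hspg2, the proteoglycan perlecan (0.66), Lamc1 (0.54), Lamb2, Lamb1, Lama5, Lamc3 and Lamb3, laminin chains (0.32 to 0.48), Col4a2, a collagen IV chain (0.53), Agrn, agrin (0.42), and Nid1, nidogen (0.37). Lama5 and Lamc3 were dim. Hspg2 had 7.92, 6.35, 6.69, 7.09 and 6.23 in Marfan vehicle lungs, against 5.76, 6.18 and 6.85 (lowest, median, highest) in WT vehicle lungs, so 3 Marfan arrays lay within the WT range. Without Marfan array 20 the list median was 0.19 and 2 members had p below 0.05, and without Marfan array 21 there were 13. Over all genes, 679 were higher at p below 0.05, and 527 to 915 with 1 array left out. With brightness the median was 0.29 and 7 members had p below 0.05 (against 3.72% of all genes higher). Under sildenafil the median was 0.05 with 12 of 22 positive. Without Marfan sildenafil array 9 it was 0.14 with 19 of 22 positive.

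Among adhesive glycoproteins, Fn1, fibronectin, had 9.67, 9.18, 9.15, 9.21 and 8.90 in Marfan vehicle lungs, against 8.30, 8.54 and 9.28 (lowest, median, highest) in WT vehicle lungs. WT array 17 was at 9.28, above all Marfan arrays but 20. The difference was 0.62 ± 0.21 (SE, limma adjusted p = 0.788), 1.01 with brightness and 0.58 under sildenafil, which was 0.30 without Marfan array 9. The list of 19 had a median of 0.12 and 3 members with p below 0.05 (15.8%, against 3.48% of all genes higher), which were Aebp1, Fn1 and Sparcl1, a SPARC relative at 0.27. The median was 0.034 with brightness, where 11 of 19 were positive, and 0.069 without Marfan array 20. In this list Postn, periostin, was at 0.01 and Ccn2, a matricellular growth factor, at -0.07. Small leucine-rich proteoglycans had a median of 0.16 over 11 members. Fmod (0.61), Podn (0.54), Prelp (0.41) and Kera (0.29) had p below 0.05 (36.4%, against 3.48% of all genes higher). Kera was dim, at 2.90 to 3.16 on the Marfan vehicle and 2.52 to 3.02 on the WT vehicle arrays. The median relative to the median gene was -0.02 in the deposited values, and with brightness the list median was -0.05 and 0 members were higher at p below 0.05. With 1 vehicle array or Marfan sildenafil array 9 left out, the count in the adhesive list lay between 2 (without Marfan array 20) and 6 (without WT array 17). Without WT array 18, 1 proteoglycan had p below 0.05.

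Cell-surface heparan sulfate proteoglycans, the glypicans and syndecans that bind growth factors, all had positive differences (10 of 10, against 48.8% of all genes, median 0.27). On the arrays with high Y-linked genes 10 of 10 were positive, and on those with low Y-linked genes 6 of 10. Besides Gpc3, Gpc6 (0.59, dim) and Gpc4 (0.39) had p below 0.05, making 3 of 10 (30%, against 3.48% of all genes higher). The median was 0.19 with brightness, with 1 member at p below 0.05 (against 3.72% of all genes higher). Under sildenafil it was 0.11 with 7 of 10 positive, or 6 of 10 without Marfan sildenafil array 9. Integrins that bind these matrices had a median of 0.17 over 13 members. Itga5, the fibronectin receptor subunit (0.62), and Itga3 (0.40) and Itga6 (0.31), laminin receptor subunits, had p below 0.05 (23.1%, against 3.48% of all genes higher). Their median was 0.26 with brightness and -0.03 under sildenafil, and their count was 2 without Marfan array 20 and 6 without Marfan array 21. Matrix proteases were mixed. Mmp2 (0.49), Mmp9 (0.43) and the inhibitor Timp2 (0.23) had p below 0.05 among 29 members (10.3%, against 3.48% of all genes higher). Their list median was 0.06, or 0.13 with brightness. The count was 1 without Marfan array 22 and 5 without Marfan sildenafil array 9.

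**Figure D3:**
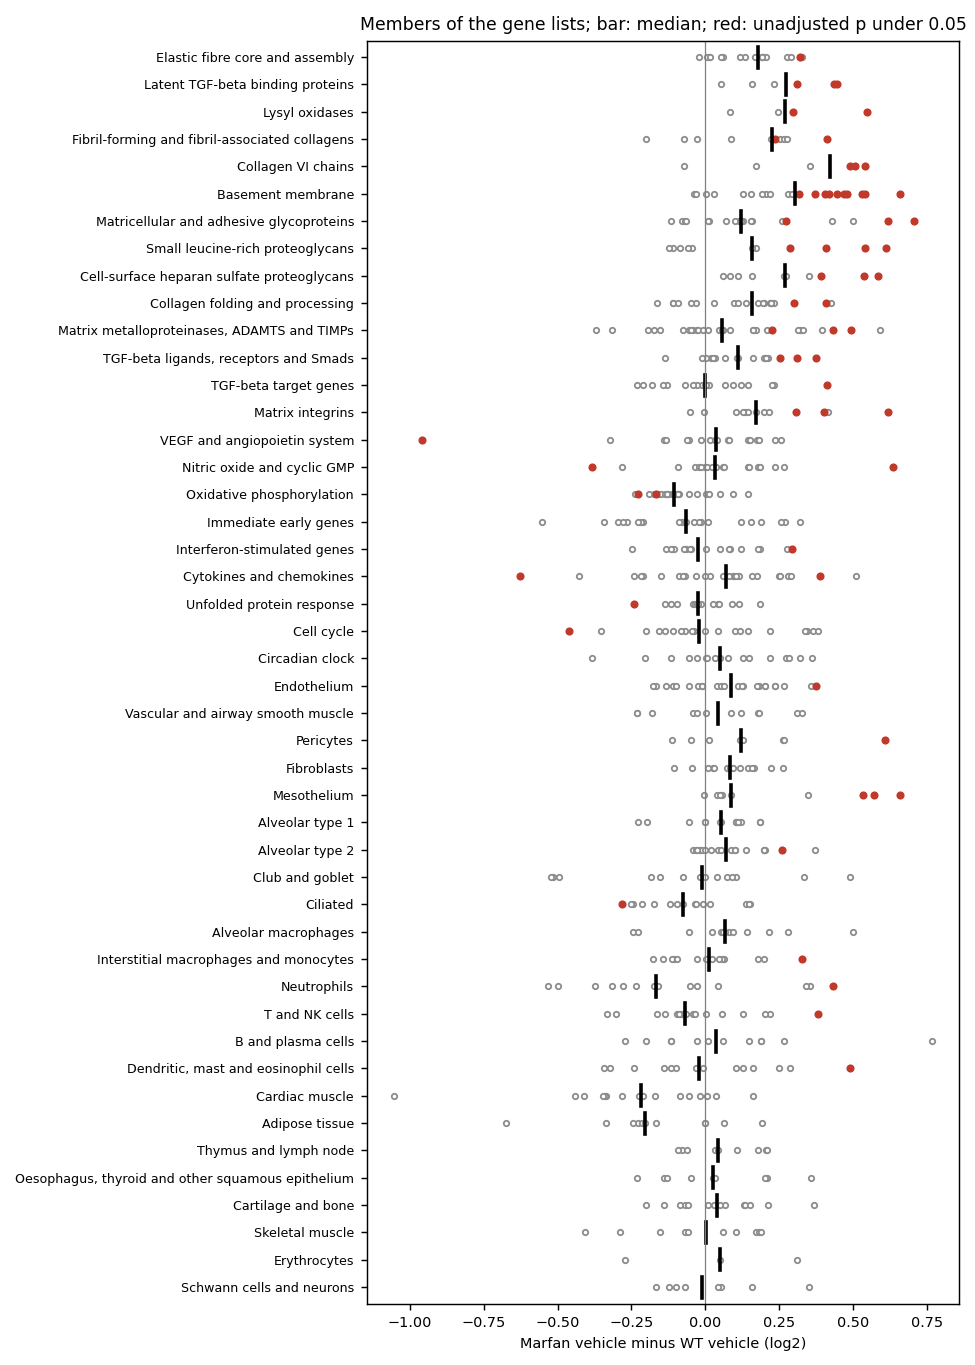
Marfan vehicle minus WT vehicle differences (log2) of the measured members of 46 gene lists, 1 circle per gene, red where the unadjusted p was below 0.05, with a black bar at the list median. Collagen VI has the rightmost bar (0.42) and the basement membrane list the most red circles (10).

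**Figure D4:**
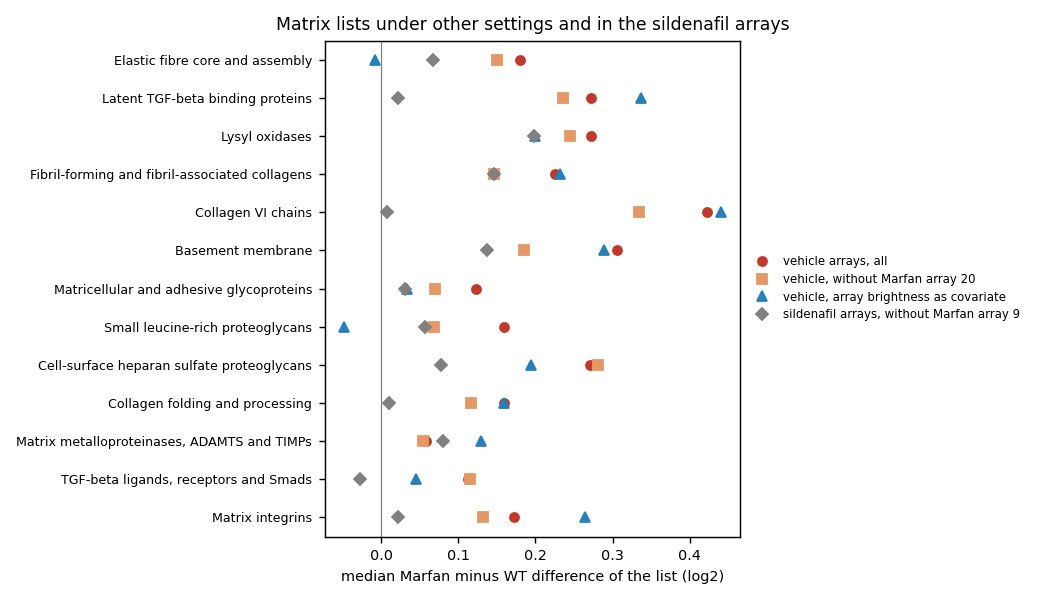
Median Marfan minus WT difference (log2) of 13 matrix and TGF-beta lists with all vehicle arrays, without Marfan array 20, with array brightness as covariate and in the sildenafil arrays without Marfan array 9. Collagen VI stays to the right in the 3 vehicle settings and is near 0 under sildenafil (0.0076), while elastic fibre genes are near 0 with brightness.

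Signalling genes had smaller medians than the collagen lists. The 17 TGF-beta ligands, receptors and Smads had a median of 0.11, and Tgfbr2, the type II receptor (0.25, no overlap), Ski, a repressor of Smads (0.37), and Tgfb3, a ligand (0.31), had p below 0.05 (17.6%, against 3.48% of all genes higher), with Tgfb1 at 0.20 and Tgfb2 at 0.21. Without Marfan array 20, 1 of the 17 had p below 0.05. The median was 0.05 with brightness and -0.03 under sildenafil. The 19 TGF-beta target genes had a median of -0.0012 (-0.0087 with brightness). Of them 1, Col3a1, had p below 0.05 (5.26%, against 3.48% of all genes higher), and 0 without Marfan array 20. Pde5a, the target of sildenafil, differed by 0.02 (limma adjusted p = 0.993). The 20 nitric oxide and cyclic GMP genes had a median of 0.03 (-0.07 with brightness). Nos2, the inducible synthase, was at 0.64 and Pde10a, a phosphodiesterase, at -0.38, but both were dim. VEGF and angiopoietin genes had a median of 0.04 (-0.14 with brightness, where 4 of 18 were positive). Esm1 was the 1 member with p below 0.05 among 18 (5.56%, against 2.79% of all genes lower).

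Among 26 chemokine and cytokine genes, 1 was higher and 1 lower at p below 0.05. Each is 3.85%, near the 3.48% of all genes higher and 2.79% lower. Cxcl12, a chemokine made by stromal and endothelial cells, had a difference of 0.39 (0.35 under sildenafil), and Il1b, the inflammatory cytokine, -0.63. The 26 members had a median of 0.07, which was 0.31 with brightness (19 of 26 positive) and -0.11 without Marfan array 21. Oxidative phosphorylation genes had a median of -0.11 (0.01 with brightness), with 20 of 25 negative, where 48.8% of all genes were positive. Ndufb3 and Cox6c, subunits of complexes I and IV, were at -0.23 and -0.17 with p below 0.05 (8%, against 2.79% of all genes lower). Immediate early genes had a median of -0.07 (-0.04 with brightness) and Fos, a transcription factor of the early response to stimulation, was at -0.55 (limma adjusted p = 0.822). Cell cycle, interferon, unfolded protein and circadian genes had medians of -0.02, -0.02, -0.02 and 0.05, and of 0.06, -0.09, 0.06 and -0.05 with brightness.

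Bulk lung holds many cell types, and fewer cells of a type cannot be told apart from less RNA per cell. Fibroblast, endothelial, pericyte and smooth muscle markers had medians of 0.09, 0.09, 0.12 and 0.04. With brightness these were -0.11 (2 of 15 positive), -0.08 (7 of 24), 0.01 (4 of 8) and -0.27 (3 of 12). Of the 12 smooth muscle markers, 4 were lower at p below 0.05 with brightness, against 3.53% of all genes. The per-array means of the fibroblast list were 8.11 to 8.26 in Marfan vehicle and 7.98 to 8.19 in WT vehicle lungs. Those of collagen VI (5.39 to 5.53 and 4.73 to 5.45) and of the basement membrane (6.77 to 7.62 and 6.65 to 7.22) overlapped between the genotypes as well. The part of cell composition in the matrix differences was not tested. Mesothelial markers, of the pleural lining, had 3 of 9 members at p below 0.05 (33.3%, against 3.48% of all genes higher): Msln (0.66, dim), Lrrn4 (0.57) and Upk3b (0.53). The list median was 0.09, and with brightness it was -0.05 with 0 members at p below 0.05. On the arrays with high Y-linked genes these 3 differed by 1.00, 0.92 and 0.94, and on those with low Y-linked genes by 0.08, 0.04 and -0.14. Podn and Prelp followed the same split, at 0.85 and 0.64 against -0.0039 and 0.0014. The part of sex or of pleural tissue in these values was not tested.

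Csf1r, the receptor that monocytes and macrophages need, was 0.33 higher with no overlap, while the macrophage and monocyte list had a median of 0.01 (0.15 with brightness). Csf1r was the 1 member of 14 with p below 0.05 (7.14%, against 3.48% of all genes higher). Vwf, the endothelial clotting factor carrier, was 0.38 higher in Marfan vehicle lungs, and in the sildenafil arrays Marfan lungs had a difference of -0.41. Vwf was the 1 endothelial marker of 24 with p below 0.05 (4.17%, against 3.48% of all genes higher), and 9 of 24 were negative. The endothelial list median under sildenafil was -0.25, or -0.05 without Marfan sildenafil array 9. Rsph1, a ciliary radial spoke gene, was at -0.28 and Lpcat1, a surfactant lipid enzyme, at 0.26. Rsph1 was the 1 ciliated marker of 15 with p below 0.05 (6.67%, against 2.79% of all genes lower). Lpcat1 was the 1 alveolar type 2 marker of 18 (5.56%, against 3.48% of all genes higher). The ciliated cell list had a median of -0.07, and of -0.35 with brightness, where 7 of 15 were lower at p below 0.05 (against 3.53% of all genes). Cspg4 of pericytes (dim) differed by 0.61 and was the 1 pericyte marker of 8 with p below 0.05 (12.5%, against 3.48% of all genes higher). Cardiac muscle genes, which mark heart or pulmonary vein muscle in the sample, had a median of -0.22. With brightness it was -0.62, with 7 of 16 lower at p below 0.05 (against 3.53% of all genes). Under sildenafil it was -0.23, but 0.20 without Marfan sildenafil array 9, where 14 of 16 were positive. Nppa, the atrial natriuretic peptide, ranged from 7.10 to 8.93 in Marfan vehicle lungs and from 8.23 to 9.99 in WT vehicle lungs (difference -1.05, limma adjusted p = 0.807). Neutrophil and adipose genes had medians of -0.17 and -0.20 (-0.03 and -0.25 with brightness). Of 14 neutrophil genes 10 were negative, where 48.8% of all genes were positive, and S100a8 was at -0.53 (limma adjusted p = 0.791). The 1 neutrophil gene with p below 0.05, Mmp9, was higher, at 0.43 (7.14%, against 3.48% of all genes higher).

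The vehicle and sildenafil genotype comparisons share no arrays but share the estimate of spread. Of the 1223 genes with p below 0.05 under vehicle, 649 (53.1%) had the same sign under sildenafil, against 50.7% of all genes. At p below 0.05 in both and the same direction were 38 genes (0.195%), against 23 genes at p below 0.05 in both with opposite directions. The 38 are 3.11% of the vehicle genes and 5.01% of the 758 sildenafil genes (3.89%, with 364 or 1.87% higher and 394 or 2.02% lower). Esm1, Mapkbp1, Fn1, Podn, Cxcl12, Msln, Col3a1 and Col1a2 were among the 38. No gene's 2 genotype differences differed past the adjusted threshold (lowest adjusted p 0.984, limma).

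The genes beside Fbn1 on chromosome 2 were looked at after their values were seen, by gene order in RefSeq (GRCm38.p6). Among the nearest 100 measured genes on each side, 20 of 200 (10%) had unadjusted p below 0.05 under vehicle, against 6.27% of all genes, and 32 (16%) under sildenafil, against 3.89%. In both comparisons with the same direction were 8 of the 200 (4%), against 0.195% of all genes and 0.159% (27 of 17026) on other autosomes, and 0 were opposite. These 8 are 40% of the 20 and 25% of the 32. Without Marfan sildenafil array 9 the count in both was 10. Among the next 100 genes on each side, 20 of 200 under vehicle but 8 under sildenafil had p below 0.05, and 1 in both.

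The 8 were Gatm, Frmd5, Mapkbp1, Golm2, Nusap1, Kcnip3, Ivd and Tmem87a. Gatm, a mitochondrial enzyme of creatine synthesis, had 4.68, 6.70, 5.97, 5.75 and 5.86 in Marfan vehicle lungs, against 3.62, 4.76 and 5.29 (lowest, median, highest) in WT vehicle lungs, and only Marfan array 20 lay within the WT range. Its difference was 1.27 under vehicle and 1.36 under sildenafil, though the gene is dim. Frmd5 (dim) differed by 0.80 and 0.69, and Golm2, a Golgi membrane protein, by -0.41 and -0.71. Nusap1, a spindle protein, differed by -0.39 and -0.47, Kcnip3, a calcium-binding channel partner, by -0.35 and -0.52, Ivd, an enzyme of leucine breakdown, by -0.28 and -0.48, and Tmem87a by -0.21 and -0.32. Il1b, at -0.63 under vehicle but -0.17 under sildenafil, is another gene of this stretch and not one of the 8. The labels name neither the allele nor the strain of the chromosome around Fbn1, and the part of such DNA in these differences was not tested.

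**Figure D5:**
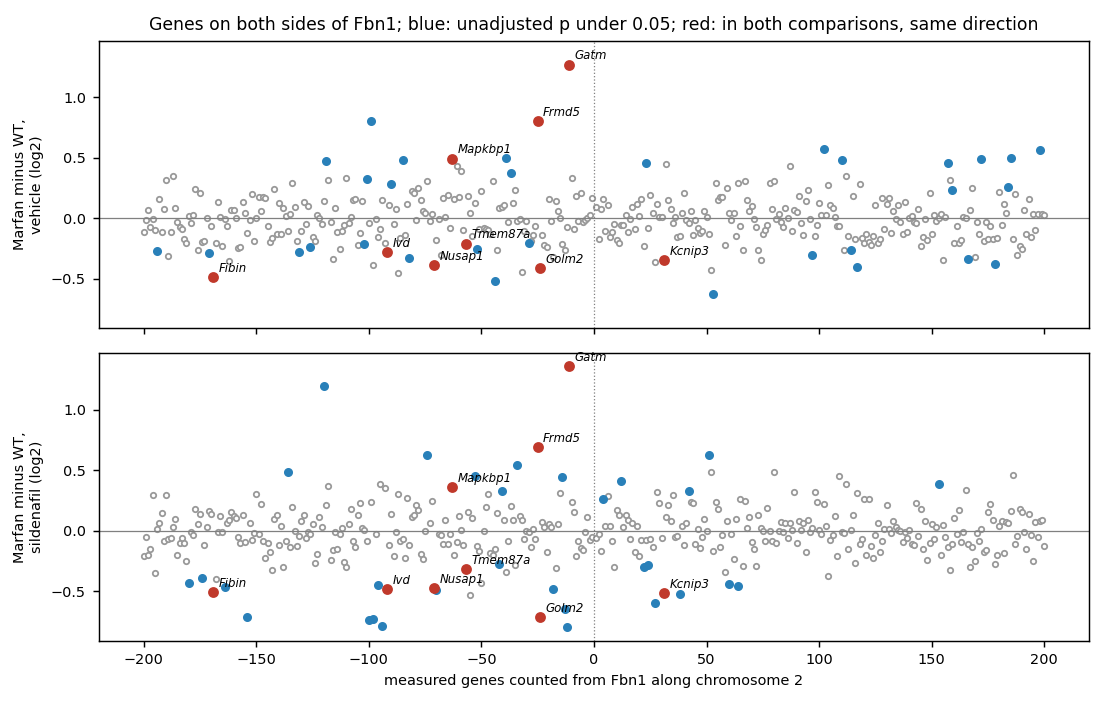
Marfan minus WT difference (log2) under vehicle (top) and sildenafil (bottom) for the 200 measured genes on each side of Fbn1, in order along chromosome 2 (horizontal axis counts genes, with Fbn1 at 0). Red circles have unadjusted p below 0.05 and the same direction in both, blue circles in the comparison shown, and Gatm is highest in both panels.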

How the data were processed

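Lung RNA was measured on Affymetrix expression arrays; per the labels' protocols 700 pg of RNA with an integrity number above 8.5 was amplified and biotin-labelled with the Pico kit. The deposited values are log2 expression values made by the authors with Affymetrix Expression Console and RMA, per the submitters' processing notes, with no version given. Of 29129 table entries, 22142 transcript probe sets were kept, 19527 had 1 gene symbol, 2615 none and 0 several, and the probe set with the highest mean stood for each of 19494 genes.

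The 20 arrays with values were quantile-normalized (limma 3.58.1 in R 4.3.3). One model of 4 groups (16 residual degrees of freedom, lmFit and eBayes with a variance trend) gave log2 differences, standard errors and Benjamini-Hochberg adjusted p-values over all genes. A dim gene lies in the dimmer 50% by mean. The number of arrays limits the precision. An exact permutation test compared array medians. The fit was tested on simulated data. Groups came from the sample titles. The labels give no batch.

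Named genes are the 12 per direction with the smallest p (dim, predicted and receptor-family genes skipped), the 6 per direction with the largest difference without overlap, up to 4 per list, and a short fixed set. Members and lists were chosen with earlier results of these data known. Alternatives were the scaling, the arrays, brightness or sex as covariates, array weights, the variance trend, probe set averaging, dim genes and each array left out. The genes around Fbn1 and the arrays with Y-linked signal were added after seeing the data. Promoter sequences are from RefSeq (GRCm38.p6). Python 3.11.15 and matplotlib 3.10.9 drew the figures.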

Additional observations from a re-analysis of the deposited data

Results flagged for a closer look

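Of 278 groups checked, each of 5 Marfan vehicle or 6 WT vehicle arrays, 17 held an array whose gap to its nearest neighbour was large for the group's range. Chance gives about 1 in 20. The sildenafil arrays were not checked in this way. Marfan vehicle array 20 had the lowest deposited median of its group (5.801, others 6.068 to 6.136), the highest lysyl oxidase mean (6.848, others 6.640 to 6.681) and the highest Col3a1 (8.963). Marfan vehicle array 21 had the highest means of cytokine and chemokine genes (7.110, others 6.441 to 6.616), interstitial macrophage and monocyte genes (8.062) and T and NK cell genes (7.367). Marfan vehicle array 22 was low for Hpf1 (5.257).

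WT vehicle array 18 was low for small leucine-rich proteoglycans (6.765), cell-surface heparan sulfate proteoglycans (6.721), Fmod (4.916) and Ivd (6.111). WT vehicle array 17 was low for cell cycle genes (5.507) and Kcnip3 (5.833) and high for Col4a2 (7.853), Fn1 (9.279) and Vwf (9.217). WT vehicle array 16 was low for Arsa (5.981).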

How the results depend on the processing

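No paired analysis was possible because the running numbers are unique to each array and pair no samples. Genes past the adjusted threshold numbered 0, against 5 in deposited values, 1 with array weights (Aebp1) and 0 to 2 with 1 array left out. Here and below, the array left out was a vehicle array or Marfan sildenafil array 9. The other sildenafil arrays were not left out, so the ranges do not cover them. Genes at unadjusted p below 0.05 numbered 679 higher and 544 lower, against 4474 and 58 in deposited values, 198 and 2898 after median centring, 356 and 285 without dimmer genes, and 527 to 915 and 445 to 680 with 1 array left out. Genes without overlap numbered 51 higher and 52 lower, against 662 and 4 in deposited values, 13 and 318 after median centring, 29 and 30 without dimmer genes, 634 and 625 on the arrays with Y-linked signal (chosen after seeing the data), and 75 to 147 and 77 to 135 with 1 array left out. Fewer arrays make overlap less likely by construction. Near Fbn1, 20 genes at p below 0.05 became 58 in deposited values, 37 after median centring and 18 to 27 with 1 array left out, and 4, 9 and 40 with 25, 50 and 200 genes on each side. The 8 in both comparisons became 3 in deposited values, 6 to 10 with 1 array left out, and 3 and 4 with 25 and 50 genes on each side. The cause of these shifts was not tested.

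Of 92 named gene differences under 23 settings, 13 genes changed sign as measured. In deposited values these were Mfsd14a (0.013), Ccn2 (0.19), Ndufb3 (0.072), Rsph1 (0.080), Kcnip3 (0.031), Tmem87a (0.034) and Ivd (0.065). That setting put the median gene at 0.25, and all 7 lay below it (by -0.06 to -0.23), so these sign changes come with the shift of all genes and show no reversal relative to it. With brightness they were Fbln1 (-0.018), Tgfb2 (-0.15), Postn (-0.19), Pde5a (-0.24) and Prelp (-0.049). After median centring they were Postn (-0.13) and Pde5a (-0.12), and array weights turned Pde5a (-0.028). The arrays with Y-linked signal turned Ccn2 (0.067) and Postn (-0.070). With 1 array left out, Ccn2 ranged from -0.26 to 0.057, Postn from -0.20 to 0.13, Pde5a from -0.093 to 0.11 and Lox from -0.025 to 0.18. The list medians moved by more than the spread between arrays in 81 checks, 40 of them in deposited values.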
